A study of Mus musculus with 7 samples.

Results

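The cytosolic ribosome of mouse haematopoietic stem cells (HSCs) is described here through the genes of its proteins, in cells from old and young animals. Members were every gene of the deposited count table whose symbol has the form of a cytosolic ribosomal protein, that is Rpl or Rps followed by a number and, where present, a short suffix, together with Rplp0, Rplp1, Rplp2 and Rpsa. This gave 84 of 24015 genes, 51 of the large subunit (60S) and 33 of the small subunit (40S). Bulk RNA sequencing was done on bone marrow cells of C57BL/6 mice sorted as lineage-negative, Sca-1-positive, c-Kit-positive, CD150-positive and CD48-negative, a gate enriched for HSCs. There were 3 libraries of old HSCs (old 1 to 3) and 4 of young HSCs (young 1 to 4), with no treatment or genetic change in the labels. Neither ages nor separate animals per library are stated in the labels, so p-values measure only the spread between these samples, which may be technical.

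Each cytosolic ribosome joins 1 copy of most of these proteins to ribosomal RNA, the small subunit reading the messenger RNA and the large subunit forming peptide bonds. Their messenger RNAs often begin with a run of pyrimidines, the 5′ terminal oligopyrimidine tract, through which growth signalling controls their translation as a group. HSCs are known for a low rate of protein synthesis, and reduced dose of single ribosomal proteins causes Diamond-Blackfan anaemia, a failure of red cell production.

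Library totals ran from 22203806 to 32401925 counts, and between 10576 and 12073 genes had a count. The lowest chi-square between 2 libraries was 186 per degree of freedom, which bears only on whether 1 library was deposited under 2 names, since separately amplified libraries differ by more than counting noise. Of the marker lists, the summed level of the 10 HSC genes was 3289 to 3518 CPM (counts scaled to a common library total) in old and 1826 to 2871 CPM in young libraries. These genes did not move together. The log2 fold change of old against young was positive in 6 of the 10, among them Procr (2.74) and Mllt3 (1.53). It was negative in Kit (-0.52), Hlf (-0.23), Meis1 (-0.26) and Tek (-0.30). The 3 multipotent progenitor genes Cd34, Cd48 and Flt3 summed to 85.2 to 135 CPM in old and 261 to 407 CPM in young libraries, most of it Cd34. Cd48 and Flt3 were at 0 in every old library. In the young libraries Cd48 had 1.87 to 24.5 CPM and Flt3 had 0 to 36.2 CPM. The 11 erythroid genes summed to 7240 to 10220 CPM in old and 4145 to 7185 CPM in young libraries, nearly all of it Car2, with the 4 globin genes at 0 in every library. The 10 neutrophil and monocyte genes summed to 1424 to 2210 CPM in old and 862 to 1441 CPM in young libraries, nearly all of it Lyz2 and Prtn3, with Ctsg and Csf1r at 0. Ebf1 and Ms4a1 of the 6 B cell genes, Cd3e and Ncr1 of the 6 T and NK cell genes, Gp6 of the 8 megakaryocyte genes and Lepr of the 4 stromal genes were at 0 throughout. Summed levels of the B cell, T and NK cell, megakaryocyte and endothelial genes overlapped between the groups, and the stromal genes reached at most 0.175 CPM in any library. Of the tested genes of these lists, only Procr (edgeR adjusted p = 0.00643) and Prtn3 (0.0242) passed, both higher in old. Prtn3 had 546 to 772 CPM in the old and 98.4 to 206 CPM in the young libraries, without overlap (log2 fold change 2.10). Klrb1c, an NK cell receptor, had 109, 238 and 186 CPM in old 1 to old 3 and 0, 0, 0 and 12.2 CPM in young 1 to young 4 (log2 fold change 5.86; edgeR adjusted p = 0.324). Nkg7, a granule protein of cytotoxic cells, had 21.3 to 105 CPM in the old and 65.4 to 382 CPM in the young libraries (log2 fold change -1.38). Emcn, an endothelial sialomucin also found on HSCs, had 76.6 to 113 CPM in the old and 51.0 to 70.4 CPM in the young libraries, without overlap (edgeR adjusted p = 0.524). The part of these markers in the results below was not tested, and in bulk samples fewer cells of a type and less RNA per cell cannot be told apart.

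The ribosomal protein genes took a larger part of the counts in every old library than in any young library. Their summed share was 3.20% in old 1, 2.46% in old 2 and 2.18% in old 3, against 2.01% in young 1, 2.11% in young 2, 1.40% in young 3 and 1.87% in young 4. The means were 2.62% ± 0.53 (SD, n = 3) and 1.85% ± 0.32 (SD, n = 4), a ratio of 1.42. Old 1 stood highest and young 3 lowest, while old 3 and young 2 lay next to each other. Wilson 95% intervals of these shares were narrow, 2.18% to 2.19% for old 3 and 2.1% to 2.11% for young 2, and cover counting error only, because reads were amplified without molecular identifiers. The ratio was 1.26 without old 1, 1.31 without young 3 and 1.16 without both.

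Both subunits had higher mean shares in the old libraries. Large subunit genes held 1.89%, 1.46% and 1.32% of counts in old 1, old 2 and old 3, and 1.20%, 1.23%, 0.887% and 1.14% in young 1 to young 4, with no overlap. Small subunit genes held 1.31%, 1.0% and 0.866% in the old libraries and 0.809%, 0.871%, 0.510% and 0.733% in the young libraries, so that young 2 lay just above old 3. The summed large subunit counts were 1.44, 1.46 and 1.52 times the small subunit counts in old 1 to old 3, and 1.49, 1.42, 1.74 and 1.55 times in young 1 to young 4. On the log2 scale this ratio was 0.56 ± 0.04 (SD, n = 3) in old and 0.63 ± 0.13 (SD, n = 4) in young libraries, a difference of -0.07 that is smaller than the spread between the young libraries. Young 3 had the highest ratio, with 63.5% of its ribosomal protein counts on the large subunit, and young 2 the lowest, with 58.6%. Without old 1 and young 3 the difference was 0.0028, so its sign was not stable.

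**Figure D1:**
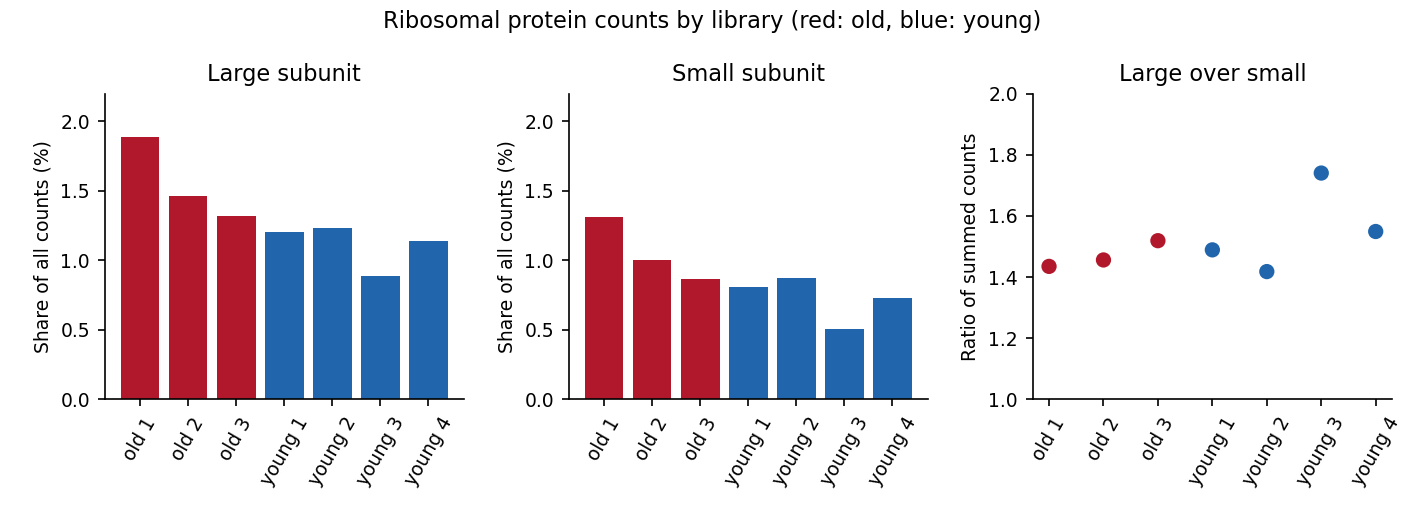
Percent of all counts on large subunit genes (left) and small subunit genes (middle), and the ratio of the summed counts (right, axis from 1 to 2), in each of 7 libraries, old in red and young in blue. Old 1 has the tallest bars (1.89% and 1.31%) and young 3 the shortest (0.887% and 0.510%), and young 3 also has the highest ratio, 1.74.

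With edgeR, no single ribosomal protein gene passed the test for a difference between old and young. After a low-count filter, 80 of the 84 members could be tested, 47 large and 33 small. Of these, 0 had an edgeR adjusted p under 0.05, where 29 of 11506 genes tested, or 0.252%, did, and the lowest edgeR adjusted p of a member was 0.164. With DESeq2, 5 of the 80 passed, all of them higher in old, against 1.90% of all genes. Among these were Rpl13 (DESeq2 adjusted p = 0.00124), Rps3a1 (0.00502), Rpl7 (0.0173) and Rpl10 (0.0305).

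At an unadjusted edgeR p under 0.05, 25 of the 80 were higher in old and 0 lower, where 4.62% of all genes tested were higher and 4.49% lower at this level. The 25 were 14 large and 11 small subunit genes. This count changed with single libraries. It was 5 without old 1, 18 without old 2 and 27 without old 3. Without young 1, young 2, young 3 or young 4 it was 22, 35, 12 and 12. Without both old 1 and young 3 it was 2. With fewer libraries the test also has less power. In 24 of the 80, 13 large and 11 small, every old library lay above every young library, against 7.55% of all genes. The log2 fold change of old against young was positive in 45 of 47 large and 32 of 33 small subunit genes, against 48.5% of all genes tested. Its median was 0.53 (range -0.48 to 1.10) for the large and 0.62 (range -1.24 to 0.99) for the small subunit, and -0.03 for all genes. Without old 1 the medians were 0.34 and 0.41, and without both old 1 and young 3 they were 0.21 and 0.25, with 66 of 81 tested members positive. These counts and medians describe the list, which was not tested as a whole.

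**Figure D2:**
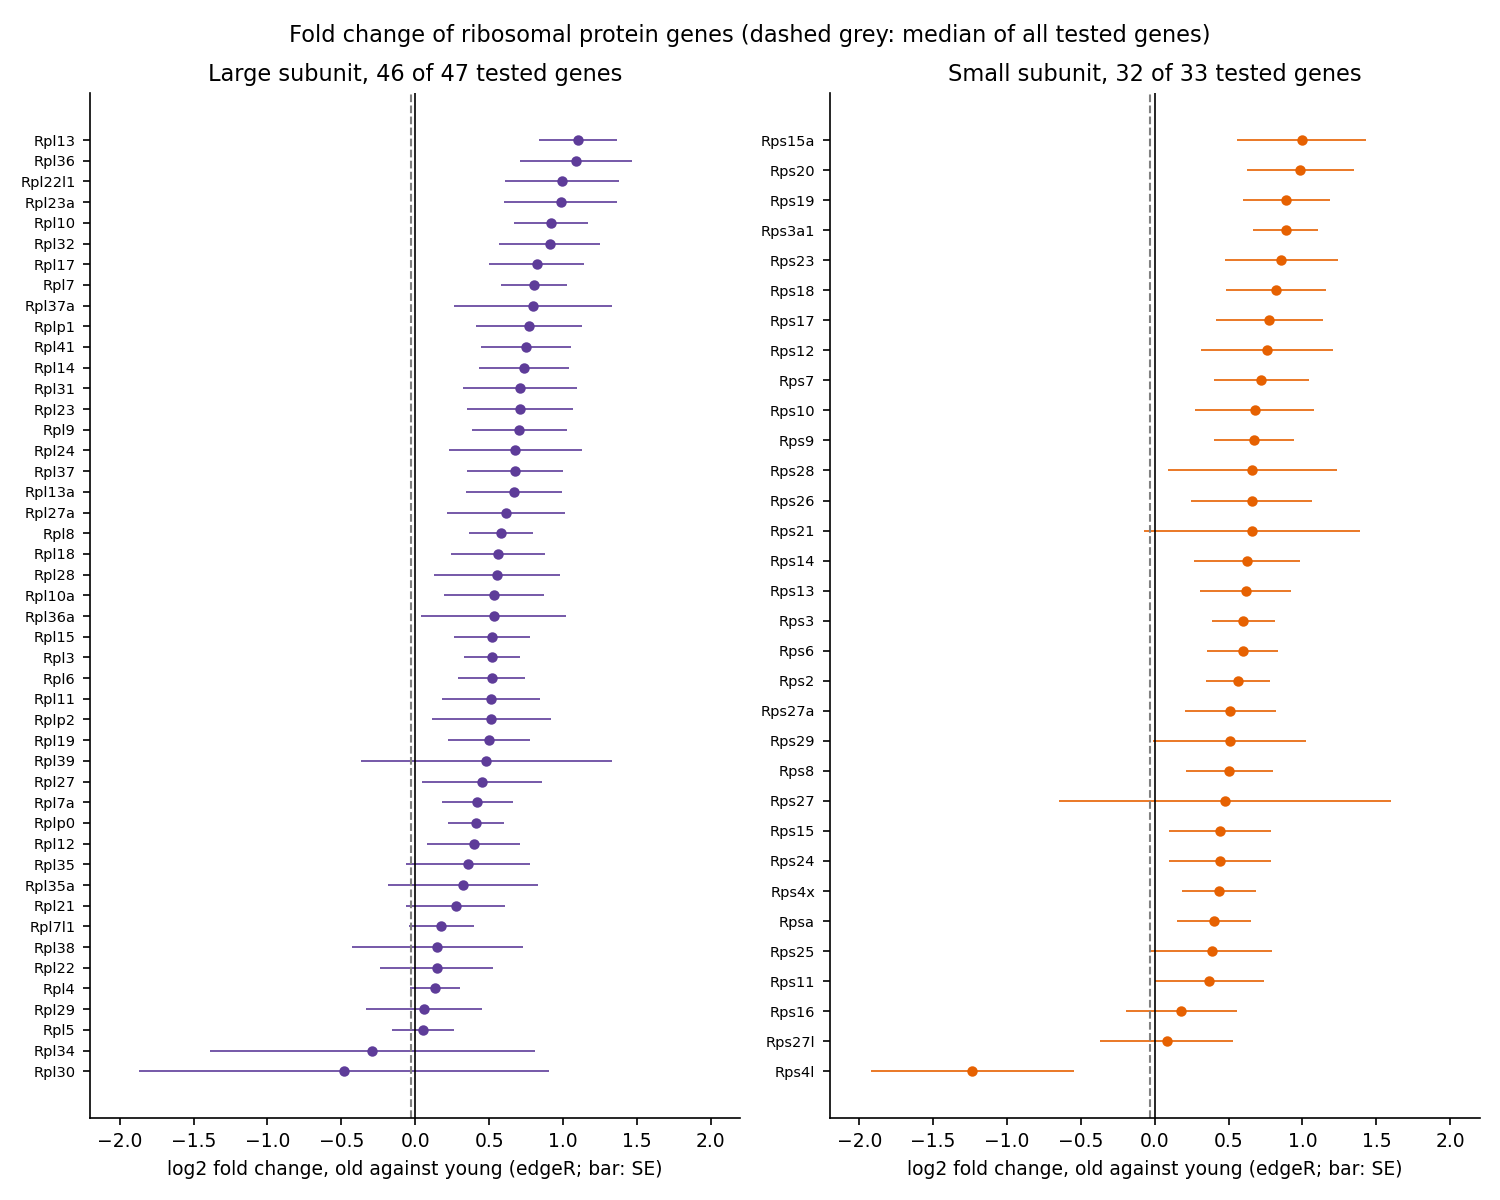
Log2 fold change of old against young for 46 of 47 tested genes of the large (left) and 32 of 33 of the small (right) subunit, with its standard error from edgeR, in order of size, and the median of all tested genes as a dashed line. All genes drawn except Rpl30, Rpl34 and Rps4l lie to the right of 0, and most of the error bars of neighbouring genes overlap.

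Most of the variation among the 80 genes was shared within a library. Expressed as the log2 CPM minus the gene's own mean over the 7 libraries, the median over the genes was 0.74 in old 1, 0.32 in old 2 and 0.00 in old 3. It was -0.01 in young 1, 0.13 in young 2, -0.84 in young 3 and -0.30 in young 4. By this measure old 3 lay between young 1 and young 2, so the groups overlapped. Old 1 was the highest library for 68 of the 80 genes and young 3 the lowest for 72. A single value per library held 72.6% of the variance of these deviations. The subunits followed each other, with medians of 0.74 and 0.74 (large and small) in old 1 and of -0.83 and -0.86 in young 3. Across the members, the log2 CPM of any 2 libraries had a Pearson correlation of 0.958 to 0.990, which describes the shared order of levels among genes and is no test.

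**Figure D3:**
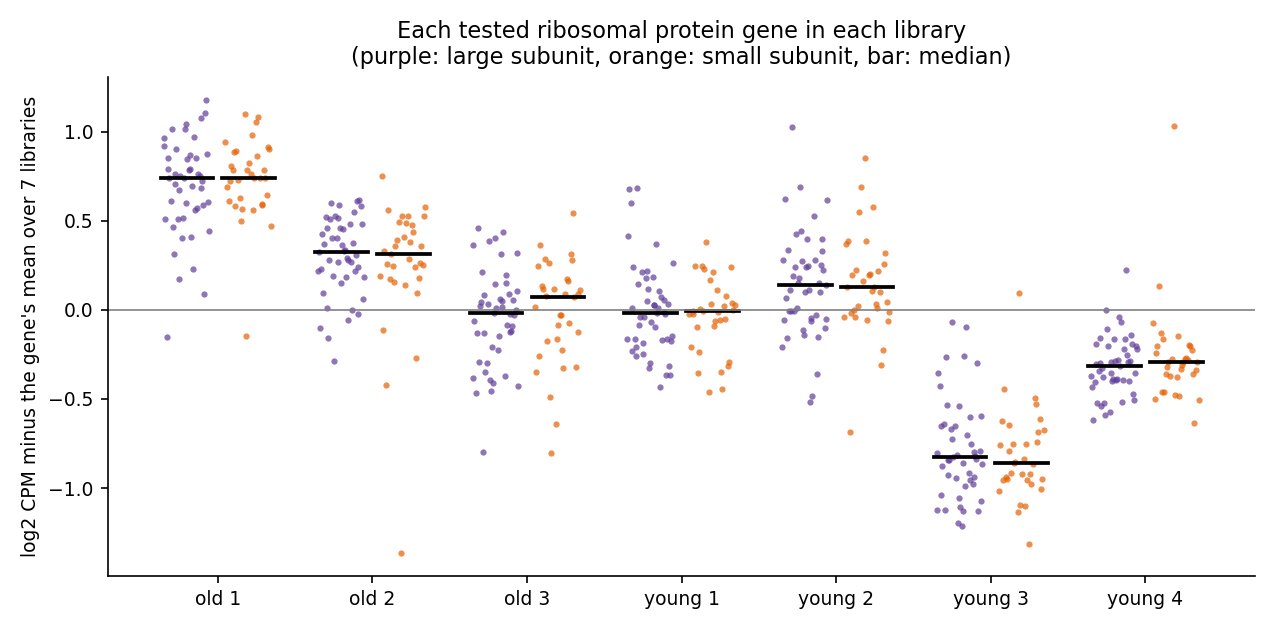
Each point is 1 of 80 tested genes in 1 of 7 libraries, as its log2 CPM minus its mean over the libraries, with large subunit genes in purple, small subunit genes in orange and the medians as bars. Old 1 lies highest (median 0.74) and young 3 lowest (median -0.84) for both subunits, and old 3 overlaps young 1 and young 2.

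Short genes in general differed between these libraries, and ribosomal protein genes are short. Tested large subunit genes had a median coding length of 480 bases (75 to 1257) and small subunit genes of 446 bases (168 to 885), in the GENCODE annotation. Tested genes outside the family had a median log2 fold change of 0.16 where the coding length was under 300 bases, 0.19 for 300 to 449, 0.20 for 450 to 599, 0.17 for 600 to 899 and -0.17 for 900 bases and over. The ribosomal protein genes of the same classes had medians of 0.58, 0.61, 0.62, 0.57 and 0.41, the last over 3 genes. Within each class, their median was thus above that of the other genes, at the class of 300 to 449 bases over 27 ribosomal protein genes and 521 other genes. In that class, other genes deviated by 0.39 in old 1, 0.17 in old 2, -0.07 in old 3, -0.01 in young 1, 0.47 in young 2, -0.59 in young 3 and -0.17 in young 4, as medians. The ribosomal protein genes of the class deviated by 0.76, 0.40, -0.13, 0.01, 0.20, -0.86 and -0.39 in the same order. Young 3 was thus the lowest library in both kinds of gene, whereas the highest was old 1 for ribosomal protein genes and young 2 for other genes of the class. Across genes, the Spearman correlation of the log2 fold change with coding length was -0.04 over 79 ribosomal protein genes and -0.26 over 10869 other genes, as a description of genes that share their libraries. Within single libraries, the deviation of the 79 genes did vary with coding length, in opposite directions. This correlation was -0.13, -0.60 and 0.55 in old 1 to old 3. In young 1 to young 4 it was -0.33, -0.27, 0.20 and 0.60. The part of transcript length in the old and young difference was not tested.

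**Figure D4:**
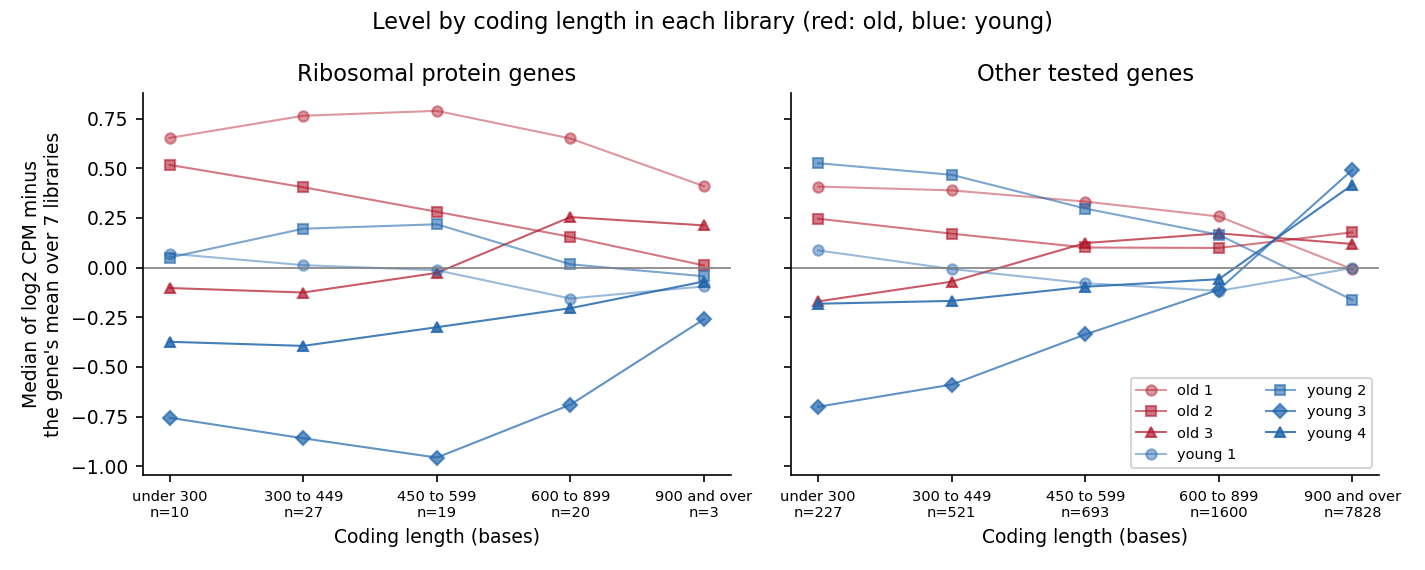
Median deviation of log2 CPM from the gene's mean over 7 libraries, by class of coding length, for ribosomal protein genes (left) and other tested genes (right), with 1 line per library, old in red and young in blue. Among other genes under 300 bases young 3 lies lowest (-0.70) and young 2 highest (0.53), while among ribosomal protein genes of that class old 1 lies highest (0.65).

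Start sites were compared because these genes varied together. Of the 84 members, 63 had a promoter window in RefSeq (build GRCm38.p6, which is not the mm9 build of the counts), running from 250 bases before to 50 bases after the annotated start. The 30 bases around the start are shown for the most abundant members with an entry, Rpl4, Rplp0, Rpl13 and Rps3, and for Rpl7a, Rpl34 and Rps6, which were added after their sequences and values were seen because their runs are long. Capitals mark the longest unbroken run of C or T that reaches within 5 bases of the annotated start, which is the 16th base of each line.
Rpl4: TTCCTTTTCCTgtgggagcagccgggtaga
Rplp0: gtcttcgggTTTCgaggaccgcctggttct
Rpl13: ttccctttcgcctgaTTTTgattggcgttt
Rps3: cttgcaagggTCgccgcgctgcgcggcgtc
Rpl7a: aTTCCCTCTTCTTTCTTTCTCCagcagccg
Rpl34: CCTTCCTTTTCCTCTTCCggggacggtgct
Rps6: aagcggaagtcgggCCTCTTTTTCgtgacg
The windows are at chr9:64173372-64173401 for Rpl4, chr5:115559452-115559481 for Rplp0, chr8:123102335-123102364 for Rpl13 and chr2:26910792-26910821 for Rpl7a, on the forward strand. Those of Rps3 at chr7:99483695-99483724, Rpl34 at chr3:130730323-130730352 and Rps6 at chr4:86857353-86857382 are on the reverse strand.

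The run was 21 bases long in Rpl7a, 20 in Rpl34, 14 in Rpl4 and 10 in Rps6, reaching past the left edge of the window in Rpl4 and Rpl34, and 4 in Rplp0 and Rpl13 and 2 in Rps3. A run of 8 or more reached within 5 bases of the start in 38.1% of the 63 members and in 12.2% of the 8644 other tested genes with an entry. Such a run can end before the annotated start, as in Rpl4, and need not be a 5′ terminal tract. The annotated start itself was a C in 33.3% of these members and 17.8% of these other genes. Of the genes shown with long runs, Rpl34 had a log2 fold change of -0.29, Rpl4 of 0.13, Rpl7a of 0.42 and Rps6 of 0.60. The value of Rpl34, at a mean of 8.66 CPM, had a standard error of 1.10. A run of 8 or more stood in 24 members, which these chosen genes do not represent. Whether the fold change varied with the run was not tested. Within the 300 bases, the letters CCGGAAG, the core bound by ETS factors, were found on either strand in 41.3% of members and 21.3% of other tested genes. AAGATGG, part of the site of YY1, was found in 15.9% and 8.71%, and TATAAA in 11.1% and 8.33%. No search excluded overlap of these letters with another motif or with the run, and a match of letters is a description of the window. A gene with several annotated starts counted where any of its windows matched.

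Of the large subunit, Rpl13 had the smallest p. Its level was 2104, 1405 and 1351 CPM in old 1 to old 3 and 816, 928, 491 and 782 CPM in young 1 to young 4. Every old library lay above every young one, and old 1 stood well above old 2 and old 3. The log2 fold change was 1.10 ± 0.26 (SE), with an edgeR adjusted p of 0.164. Rpl13 was also the most abundant of 79 members per length, with 1443 CPM per kilobase of transcript, although only 19.7% of its 50-base stretches are absent from transcripts of other genes, pseudogenes included.

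Rpl10, which helps complete the late 60S subunit and lies by the peptidyl transferase centre, had 641, 382 and 422 CPM in the old and 293, 284, 188 and 254 CPM in the young libraries. The groups did not overlap, with young 3 lowest. Its log2 fold change was 0.92 ± 0.25 (SE; edgeR adjusted p = 0.213). Only 7.9% of the 50-base stretches of Rpl10 are found in no other gene, so its count is uncertain. Rpl7 had 1026, 633 and 817 CPM in the old and 505, 531, 377 and 481 CPM in the young libraries, again with no overlap. The log2 fold change was 0.80 ± 0.22 (SE; edgeR adjusted p = 0.218). Rpl36 had 145, 95.5 and 63.7 CPM in the old and 49.5, 59.5, 36.7 and 44.9 CPM in the young libraries, with old 3 just above young 2. This gave a log2 fold change of 1.09 ± 0.38 (SE; edgeR adjusted p = 0.355). For Rpl36, 18.9% of these stretches are unique, which also leaves its count uncertain.

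Among the other proteins near the peptidyl transferase centre and the tRNA path, Rpl3 and Rpl8 showed no overlap between the groups, and Rpl4 and Rpl10a did overlap. Rpl3 had 779, 668 and 728 CPM in the old and 549, 410, 490 and 571 CPM in the young libraries. Its log2 fold change was 0.52 ± 0.19 (SE; edgeR adjusted p = 0.384). Only 14.4% of the 50-base stretches of Rpl3 are unique, so its count is uncertain. Rpl4, the member with the most counts, had 1841, 1512 and 1628 CPM in the old and 1556, 1525, 1472 and 1497 CPM in the young libraries, and 2 young libraries lay above old 2. Its log2 fold change was 0.13 ± 0.17 (SE; edgeR adjusted p = 0.946). All 4 young libraries of Rpl4 lay within 1472 to 1556 CPM, while the summed ribosomal protein level of the same libraries ran from 13066 to 22100 CPM.

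The stalk that recruits translation factors to the large subunit is built from Rplp0 with Rplp1 and Rplp2. Rplp0 had 1962, 1432 and 1647 CPM in the old and 1187, 1415, 1185 and 1272 CPM in the young libraries. Young 2 came just below old 2, so the groups did not overlap, and the log2 fold change was 0.41 ± 0.19 (SE; edgeR adjusted p = 0.571). Rplp1 ranged from 106 to 245 CPM in the old and from 60.6 to 124 CPM in the young libraries (log2 fold change 0.77 ± 0.36), and Rplp2 from 52.1 to 116 and from 39.4 to 83.7 CPM (0.52 ± 0.40). Both overlapped between the groups.

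Rpl5 and Rpl11 form a particle with 5S ribosomal RNA that also binds Mdm2, the ubiquitin ligase of p53, when ribosome assembly fails. Rpl5 had 385, 356 and 375 CPM in the old and 370, 455, 294 and 316 CPM in the young libraries, with young 2 highest. Its log2 fold change was 0.05 ± 0.21 (SE; edgeR adjusted p = 0.986) and turned slightly negative under several alternative settings. Rpl11 had 275, 196 and 147 CPM in the old and 179, 184, 84.9 and 129 CPM in the young libraries, which overlapped, with a log2 fold change of 0.52 ± 0.33 (SE; edgeR adjusted p = 0.777). Only 6.20% of the 50-base stretches of Rpl5 are found in no other gene. Of the exon bases of its main transcript, 46.6% overlap exons of other genes in the annotation, so its count is uncertain.

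Of the small subunit, Rps3a1 had the smallest p, with 943, 618 and 797 CPM in old 1 to old 3 and 439, 467, 327 and 468 CPM in young 1 to young 4. Every old library lay above every young one. Its log2 fold change was 0.89 ± 0.22 (SE; edgeR adjusted p = 0.181). Rps3, at the mRNA entry channel and with 97.0% of its 50-base stretches found in no other gene, had 1508, 1137 and 1231 CPM in the old and 856, 1008, 643 and 902 CPM in the young libraries. The groups did not overlap, with a log2 fold change of 0.60 ± 0.21 (SE; edgeR adjusted p = 0.362).

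Rps19, the gene most often mutated in Diamond-Blackfan anaemia, had 669, 535 and 393 CPM in the old and 284, 414, 187 and 263 CPM in the young libraries. Young 2 lay above old 3. Its log2 fold change was 0.89 ± 0.30 (SE; edgeR adjusted p = 0.324). Rps20 had 227, 149 and 114 CPM in the old and 76.5, 118, 48.0 and 87.0 CPM in the young libraries, with a log2 fold change of 0.98 ± 0.36 (SE; edgeR adjusted p = 0.387) and young 2 just above old 3. Rps14 had 1006, 840 and 520 CPM in the old and 595, 762, 273 and 418 CPM in the young libraries, where young 1 and young 2 lay above old 3, with a log2 fold change of 0.62 ± 0.36 (SE; edgeR adjusted p = 0.705). Of the 20 members listed as mutated in this anaemia, 19 could be tested, 0 passed and 19 had a positive log2 fold change, with a median of 0.56, close to the 0.57 of the 80 tested members.

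Rps6, the protein phosphorylated by S6 kinase downstream of mTOR, had 807, 583 and 627 CPM in the old and 521, 531, 310 and 419 CPM in the young libraries, with no overlap. The difference was 0.60 ± 0.24 on the log2 scale (SE; edgeR adjusted p = 0.460). Only 15.4% of the 50-base stretches of Rps6 are unique, so its count is uncertain. Rpsa, known also as the laminin receptor, ranged from 377 to 687 CPM in the old and from 322 to 487 CPM in the young libraries, with a log2 fold change of 0.40 ± 0.25 (SE). Rps27a, made as a fusion with ubiquitin, ranged from 170 to 299 CPM and from 98.3 to 208 CPM, with a log2 fold change of 0.51 ± 0.31 (SE). Both overlapped between the groups.

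A total of 3 tested members were lower in old by the fitted log2 fold change, and none passed. Rpl30 had 1.88 to 4.15 CPM in the old and 2.26 to 6.85 CPM in the young libraries (-0.48 ± 1.39), and Rpl34 had 5.96 to 9.69 and 6.10 to 12.7 CPM (-0.29 ± 1.10). Their standard errors were more than the differences themselves. Rps4l, for which the annotation gives no coding sequence, had 20.5, 8.76 and 14.5 CPM in old 1 to old 3 and 25.5, 41.1, 24.2 and 46.6 CPM in young 1 to young 4. It was the single member with every old library below every young one, which held for 5.18% of all genes tested, and its log2 fold change was -1.24 ± 0.69 (SE; edgeR adjusted p = 0.683).

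Levels spanned a wide range within the family. Per kilobase of transcript, the highest levels included Rpl13 at 1443 CPM, Rplp0 at 1063, Rps14 at 1056 and Rpl4 at 1025, and the order ended with Rpl39 at 26.6, Rps27 at 22.9, Rpl34 at 18 and Rpl30 at 6.46. The levels of Rplp0, Rps14 and Rpl4 differed by less than the spread over libraries of any of them. The length is that of 1 annotated transcript per gene, and the order depends on that choice. The transcript used had 1908 bases for Rps3 and 3706 for Rps20, against 729 and 357 coding bases. The level per kilobase was higher for longer coding sequences across the 79 members with a length (Spearman correlation 0.68) and had little relation to the share of unique 50-base stretches (0.03), both as descriptions across genes of shared libraries. Rps27, at 1.40% unique, and other members with many copies elsewhere in the genome are uncertain, since how reads that match several places were counted is not given in the sources used here. Rpl26 and Rpl10l had 0 counts in every library, Rpl3l had 1 count in all and Rpl39l reached at most 0.731 CPM, and these 4 were not tested. For Rpl26, 28.7% of the 50-base stretches are unique, against 19.7% for Rpl13, which was well counted. The annotation behind the counts is not given, so the 0 of Rpl26 does not show that the gene is not expressed.

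Paralogs were set against the gene they resemble, as a percent of its CPM in each library. Rpl22l1 stood at 90.6%, 85.6% and 93.0% of Rpl22 in old 1 to old 3 and at 41.3%, 49.0%, 51.6% and 70.4% in young 1 to young 4. These did not overlap, with means of 89.7% ± 3.79 (SD, n = 3) and 53.1% ± 12.4 (SD, n = 4). Rpl22l1 itself had 103, 63.6 and 71.0 CPM in the old and 52.8, 37.4, 32.1 and 36.6 CPM in the young libraries, also without overlap (log2 fold change 0.99 ± 0.38 SE; edgeR adjusted p = 0.430). Rpl22, which binds RNA and is known to restrain Rpl22l1 in mice, ranged from 74.3 to 113 CPM in the old and from 51.9 to 128 CPM in the young libraries, with a log2 fold change of 0.14 ± 0.38 (SE).

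Rpl7l1 stood at 41.4%, 48.7% and 60.2% of Rpl7 in the old and at 62.8%, 78.8%, 95.3% and 72.6% in the young libraries, again without overlap. Rpl7l1 itself differed little, with a log2 fold change of 0.18 ± 0.22 (SE). Rps4l stood at 2.91%, 2.07% and 2.67% of Rps4x in the old and at 5.60%, 8.19%, 8.12% and 12% in the young libraries, without overlap. Rps27l, a p53 target in other settings, had more counted reads than Rps27 in every library. It ranged from 617% to 2451% of Rps27 in the old and from 979% to 3626% in the young libraries, with overlap. Only 1.40% of the 50-base stretches of Rps27 are unique, against 77.6% for Rps27l, and Rps27 had a mean of 7.91 CPM. This ratio is therefore uncertain and may not give the relative expression of the 2 genes. Only 34.4% of the 50-base stretches of Rpl22l1 are unique and 28.8% of the exon bases of its main transcript overlap exons of other genes, which leaves its value uncertain.

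**Figure D5:**
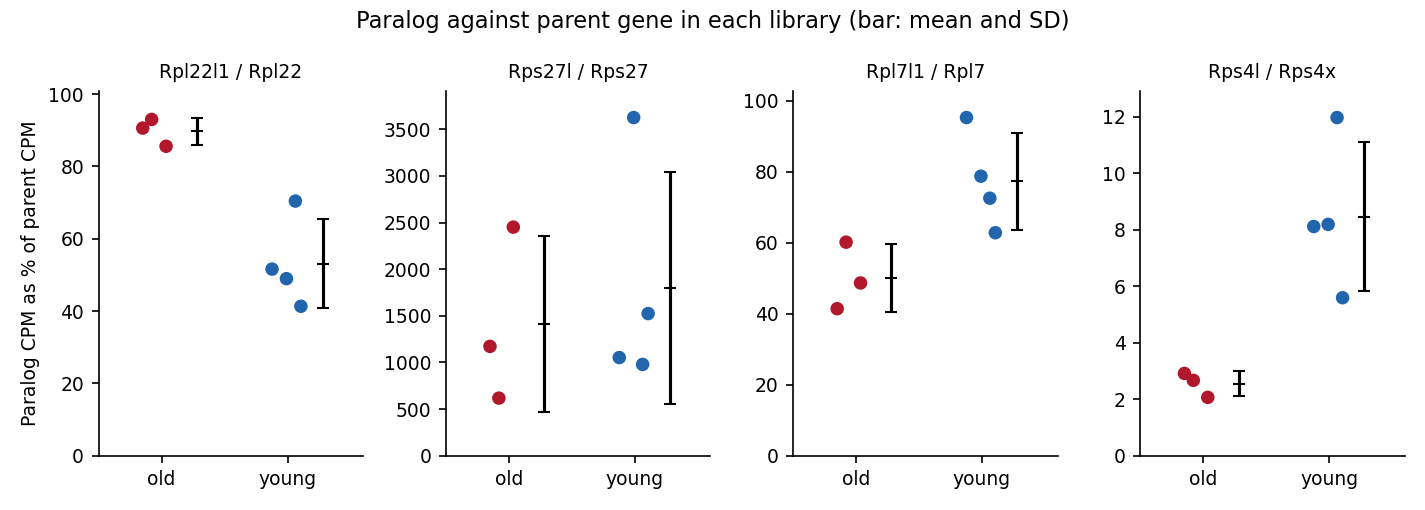
CPM of 4 paralogs as a percent of the CPM of their parent genes, 1 point per library (old red, young blue) with mean and SD as bars, each panel on its own axis from 0. Rpl22l1 lies higher in old (85.6% to 93.0%) than in young (41.3% to 70.4%), Rpl7l1 and Rps4l lie lower, and Rps27l overlaps.

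Ribosomal components outside the family of symbols were not uniform. Fau, which yields a small subunit protein, had a log2 fold change of 0.77 ± 0.42 (SE; edgeR adjusted p = 0.678). Gnb2l1, the Rack1 scaffold of the small subunit, had 1336, 919 and 1096 CPM in the old and 1288, 1506, 935 and 1024 CPM in the young libraries, which overlapped (log2 fold change -0.09 ± 0.23). Rpl36al had a log2 fold change of 0.02 ± 0.47 (SE).

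Other gene lists of protein synthesis did not have the positive median of the ribosomal protein genes. Of 46 tested cytosolic translation factors, 0 passed and 23 were positive, with a median log2 fold change of 0.00. Of 61 ribosome biogenesis genes, 0 passed and 21 were positive (34.4%, against 48.5% of all genes tested), with a median of -0.18. At an unadjusted edgeR p under 0.05, 3 of the 61 were lower in old, near the 4.49% of all genes, and 0 higher, against 4.62%. In 7 of the 61 every old library lay below every young library, against 5.18% of all genes, and in 0 the other way, against 7.55%. Of 77 mitochondrial ribosomal protein genes, 0 passed and 40 were positive, with a median of 0.02. At the same unadjusted level, 2 of the 46 translation factors were higher and 4 lower, and 2 of these 77 were higher and 0 lower. The groups did not overlap in 4 of the 46 each way and in 2 of the 77 each way. The lists were not matched for coding length. Tested genes outside the family with 900 coding bases and over had a median of -0.17, with 42.0% positive. The part of length in the difference between the lists was not tested. The 2 genes of each list with the smallest p were Eif4a2 (log2 fold change 0.81 ± 0.21 SE) and Eif4g1 (-1.34 ± 0.53), Utp20 and Nop2 (-1.26 ± 0.52), and Mrpl4 (0.57 ± 0.20) and Mrps6 (0.93 ± 0.38). Utp20, of the small subunit processome, had 0 counts in every old library and 53.0, 0.594, 32.7 and 31.5 CPM in young 1 to young 4. Eif4a2, a helicase of cap-dependent initiation, had 536, 405 and 609 CPM in the old and 324, 320, 281 and 257 CPM in the young libraries, without overlap, and an edgeR adjusted p of 0.191.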

How the data were processed

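The deposited values are unscaled whole-number read counts of each gene symbol in 7 libraries, and no pooling by the authors is visible in them. Per the labels, cDNA of polyadenylated RNA was made by Smart-seq+ and libraries with Nextera XT, so strand is unmarked. Trimmomatic, FastQC, STAR and featureCounts were used with mm9, per the submitters' processing notes. For versions, annotation and the handling of reads with several matches, settings were not given in the sources used here. All columns were mapped to samples (0 were not).

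Genes were filtered with filterByExpr (minimum count 10, minimum total 15), scaled by TMM and tested with the quasi-likelihood F test of edgeR 4.0.16 in R 4.3.3, with Benjamini-Hochberg adjustment over 11506 genes and a threshold of 0.05. The procedure was tested on simulated data. SE is the absolute log2 fold change over the square root of F. CPM refers to TMM-scaled totals, and log2 CPM has a prior count of 2. Lengths and 50-base stretches (a chosen length) come from GENCODE vM21, whose build is GRCm38. Alternatives were DESeq2 1.42.0, voom of limma 3.58.1, other scalings and filters, the replicate number as a block and each library left out. Leaving out old 1 and young 3 together, and the motifs, were added after the data were seen.

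The members, lists and named genes were chosen with earlier results of these data known. Named were, per subunit, the 5 smallest p and the 3 highest mean CPM, tested members with negative fold changes, members of set roles, paralogs with their parents, 4 components outside the family and up to 2 genes per list. Rpl3 and Rpl8, among others of a role, were named for that role. A few genes that the rule names are not reported here, and the plot of fold changes leaves them out.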

Additional observations from a re-analysis of the deposited data

How the results depend on the processing

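The members' median log2 fold change stayed positive in every setting run, from 0.23 (without old 1 and young 3) to 0.76 (without old 3), and the tested members with a positive value numbered 66 of 81 without old 1 and young 3. With edgeR, 29 genes of the table passed, against 431 with DESeq2, 50 with limma-voom, 16 with library size alone, 130 among genes of at least 50 CPM and 1 without old 1 and young 3. Leaving out 1 library left 2 to 18 genes. Members passing numbered 5 with DESeq2, 1 (Rpl13, log2 fold change 1.05, adjusted p = 0.0357) among genes of at least 50 CPM and 0 in the other settings. The old minus young difference of the log2 large to small ratio was -0.11 to -0.01 with 1 library left out and 0.0028 without both. With the replicate block 0 genes passed, no member did, and 16 members had an unadjusted p under 0.05. Same-numbered libraries correlated at 0.03, -0.07 and -0.01 and none best with its own number, which gave no sign of pairing by number but cannot exclude it. Library size alone set the median of all genes to -0.12.

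Some single genes turned negative, among them Rpl39, whose log2 fold change with all libraries was 0.48: Rpl5 to -0.031 (library size alone), -0.00071 (at least 50 CPM) and -0.056 (without old 1 and young 3), Rps27l to -0.022 (replicate block) and -0.38 (without old 1 and young 3), Rpl22 to -0.18 and Rpl39 to -0.12 (both without old 1 and young 3). With 1 library left out, Rpl5 ran from -0.031 to 0.19, Rps27l from -0.17 to 0.40, Rpl22 from -0.081 to 0.47 and Rpl39 from 0.11 to 0.75. The cause was not tested. Rpl30, Rpl34 and Rps27, each under 10 CPM on average, had standard errors of 1.39, 1.10 and 1.12, so that differences of the size seen in the family were not detectable there.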
